A study of Mus musculus with 2 samples.

Results

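The genes described here are 9 small leucine-rich proteoglycan genes (Dcn, Bgn, Lum, Fmod, Prelp, Ogn, Omd, Aspn and Podn) and Chad, which encodes chondroadherin, a leucine-rich repeat protein of the same family that lacks the long sugar chains. They were taken by symbol from a table of 33640 genes, and all 10 were found. RNA came from mitral valves of wild-type mice and of Fbn1C1039G/+ mice, both aged 5 months. The mutant animals carry 1 copy of a missense allele of fibrillin-1, the main microfibril protein, and are used as a mouse model of Marfan syndrome. For each genotype 8 valves from mice of both sexes were combined before RNA extraction and gave 1 library, so no value has an error, no test was possible, and every difference is one between these libraries. Values are TPM, a scaled transcript abundance, and correct for transcript length and for the library's total, so levels can be set against each other between genes. They do not keep sequencing depth, which is therefore unknown.

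Small leucine-rich proteoglycans are secreted proteins with a curved core of leucine-rich repeats, to which most members attach chondroitin, dermatan or keratan sulfate chains. They bind collagen fibrils and regulate fibril diameter and spacing, and several also bind growth factors such as TGF-beta and receptors on the cell surface. In heart valves, proteoglycans fill the layer between the collagen-rich and elastin-rich sheets and let the leaflet absorb compression. The family is divided into classes by sequence. Here Dcn, Bgn and Aspn belong to class I, Lum, Fmod, Prelp and Omd to class II, Ogn to class III, Chad to class IV and Podn to class V.

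Chad had 918.9 TPM in the wild-type library and 267.9 TPM in the mutant library, Ogn 174.7 and 100.9 TPM, and Lum 1213 and 872 TPM. The most abundant gene, Dcn, had 11409 and 9304 TPM, whereas Bgn, Aspn and Podn differed by less than 5% between the libraries. In all, 9 of the 10 genes had less TPM in the mutant library as deposited, where 35.1% of the 17004 genes averaging at least 1 TPM had less. The count was 10 of 10 after centring on the median gene, beside 46.5% of all such genes. It was 9 of 10 under quantile normalization, beside 51.5% of all, and there Podn turned lower and Dcn had no difference. Only Chad was at least 2-fold lower, meaning that log2(TPM + 1) in the mutant minus that in wild type was −1 or below, and none was at least 2-fold higher. Among all genes averaging at least 1 TPM, 1.72% were at least 2-fold lower and 4.81% at least 2-fold higher (293 and 818 genes, against 462 and 540 under quantile normalization). The median difference of the 10 genes was −0.29, beside 0.14 for all genes averaging at least 1 TPM. Without Chad it was −0.29 again. All 7 of these genes that averaged at least 100 TPM had less TPM in the mutant library as deposited, beside 44% of the 1390 genes of that abundance, and under quantile normalization Dcn among them had no difference. Of those 1390 genes 0.647% were at least 2-fold lower and 0.863% at least 2-fold higher.

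**Figure D1:**
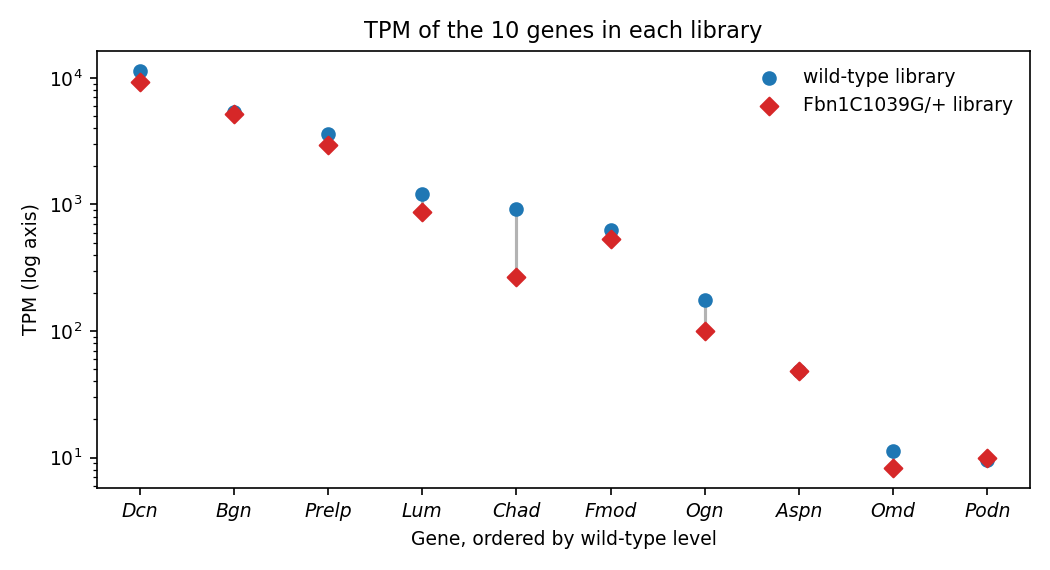
TPM of each of the 10 genes (log axis) in the wild-type library (circles) and the mutant library (diamonds), 1 library each, ordered by wild-type level. The widest gap is that of Chad (918.9 and 267.9 TPM), and the symbols of Bgn, Aspn and Podn nearly coincide.

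The abundance of the 10 genes spanned a wide range. Dcn ranked 8 of all genes in both libraries, Bgn ranked 14 in wild type and 15 in the mutant library, and Prelp ranked 20 and 23, whereas Omd ranked 9400 and 11075 and Podn 10038 and 10362. Together the 10 genes made up 2.34% of the wild-type library and 1.92% of the mutant library (23390 and 19237 TPM), so the mutant library had 17.8% less. Of this gap of 4153 TPM, Dcn made up 50.7%, Chad 15.7%, Prelp 15.6% and Lum 8.22%. With Chad left out, the sum of the others was 15.6% lower in the mutant library. In these bulk samples, fewer cells of a type and less RNA per cell cannot be told apart.

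Decorin, encoded by Dcn, carries a single chondroitin or dermatan sulfate chain, coats collagen fibrils and binds TGF-beta. Its level of 11409 TPM in the wild-type library and 9304 TPM in the mutant library was a difference of −0.29, or 18.4% less. Under quantile normalization this difference was 0.00, because the gene held the same rank in both libraries. Biglycan, encoded by Bgn, is the closest relative of decorin and can also signal through Toll-like receptors when released from matrix. It had 5396 TPM in the wild-type library and 5161 TPM in the mutant library, a difference of −0.06 that ran from −0.18 to −0.06 across 6 alternatives of pseudocount and scaling. There was thus 2.11 times as much Dcn as Bgn in the wild-type library and 1.80 times as much in the mutant library as deposited. Under quantile normalization, with Dcn at 0.00 and Bgn at −0.06, this ratio did not fall. Bgn lies on the X chromosome, and the pools were of mixed sex. The summed TPM of 4 Y-linked genes was 101 in wild type and 143 in the mutant library, and the part of this in the Bgn values was not tested. Asporin, encoded by Aspn, has a stretch of aspartates in place of the sugar chains and inhibits TGF-beta and BMP signals. Its level was 48.7 TPM in the wild-type library and 48.6 TPM in the mutant library, a difference of −0.0010 as deposited and of −0.13 to −0.0009 across the alternatives.

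The class II genes encode keratan sulfate proteoglycans and the related protein PRELP. Lumican, from Lum, regulates collagen fibril assembly in cornea, skin and heart. Lum had 1213 TPM in the wild-type library and 872 TPM in the mutant library, 28.1% less, with a difference of −0.48 as deposited and −0.28 under quantile normalization. Fibromodulin, from Fmod, binds the same site on type I collagen as lumican and modulates collagen cross-linking. Fmod had 629 TPM in the wild-type library and 533 TPM in the mutant library, a difference of −0.24. Lum was 1.93 times as abundant as Fmod in the wild-type library and 1.64 times in the mutant library. PRELP anchors basement membranes to the underlying collagen through a basic tail that binds heparan sulfate. Prelp had 3579 TPM in the wild-type library and 2931 TPM in the mutant library, a difference of −0.29. Dcn was 3.19 times as abundant as Prelp in the wild-type library and 3.17 times in the mutant library. Osteomodulin, from Omd, is an acidic protein best known from bone. Omd was scarce, at 11.2 TPM in the wild-type library and 8.28 TPM in the mutant library. Its difference was −0.40, and it ran from −0.56 to −0.29 across the alternatives.

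Osteoglycin, also called mimecan, is encoded by Ogn and takes part in collagen fibril growth in heart, cornea and bone. Ogn had 174.7 TPM in the wild-type library and 100.9 TPM in the mutant library, or 42.2% less, a difference of −0.79. Only 17 of 1390 genes averaging at least 100 TPM lay further below, and the central 95% of those genes lay between −0.61 and 0.78. Across the alternatives the difference of Ogn stayed between −0.91 and −0.76 and did not reach the 2-fold mark. Podocan, from Podn, binds type I collagen and limits growth of smooth muscle cells. Podn had 9.50 TPM in the wild-type library and 9.94 TPM in the mutant library, a difference of 0.06 as deposited, of −0.052 after centring on the median gene and of −0.11 under quantile normalization. Omd and Podn were near 10 TPM, an abundance (5 to 50 TPM) at which the central 95% of genes lay between −0.68 and 1.13. Their differences were both within that range.

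Chondroadherin binds type II and type VI collagen and a collagen-receptor integrin, and is best known from cartilage and tendon. Chad had 918.9 TPM in the wild-type library and 267.9 TPM in the mutant library, 3.43 times as much in the wild-type library, a difference of −1.77 that ran from −1.89 to −1.71 across the alternatives. Its rank among all genes was 101 in wild type and 405 in the mutant library, and within the family it passed from the fifth place, above Fmod, to the sixth, below it. There was 12.4 times as much Dcn as Chad in the wild-type library and 34.7 times as much in the mutant library. Bgn was 5.87 times as abundant as Chad in wild type and 19.3 times in the mutant library. As a share of the 10 genes, Chad made up 3.93% in wild type and 1.39% in the mutant library, whereas Dcn made up 48.8% and 48.4%. Among the 1390 genes averaging at least 100 TPM, 4 lay further below than Chad, and all of these were globin genes.

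**Figure D2:**
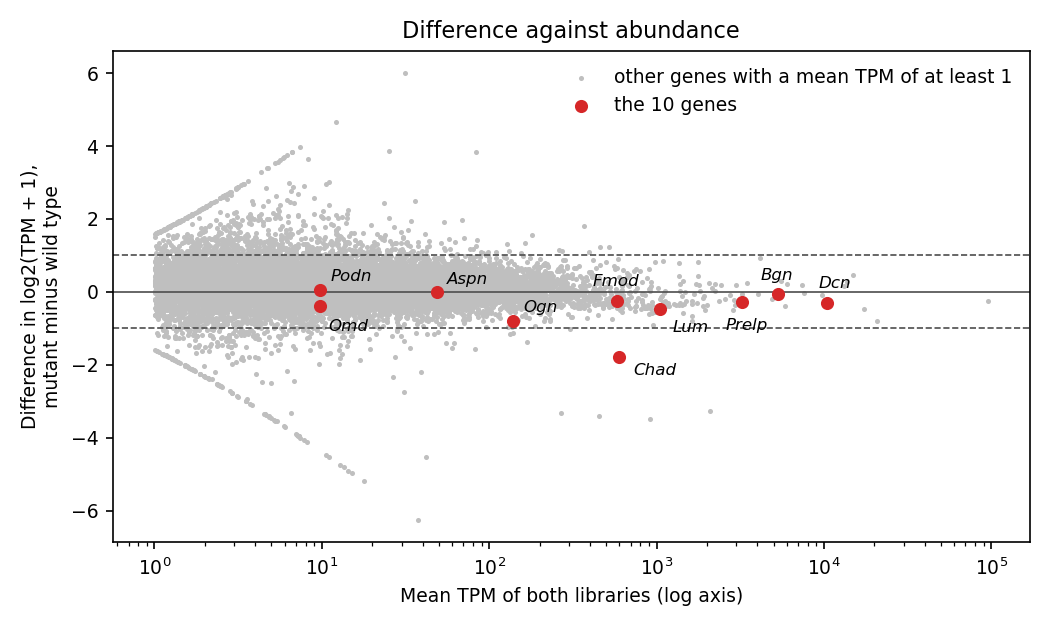
Mutant minus wild-type difference in log2(TPM + 1) against mean TPM (log axis) for every gene averaging at least 1 TPM, with the 10 genes in red and dashed lines at 2-fold. Chad, at −1.77, lies below the lower dashed line and well outside the bulk of genes of its abundance, and Ogn, at −0.79, lies at the lower edge.

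The 5 genes nearest to Chad in difference, among those averaging at least 100 TPM, were all closer to 0 than Chad. This was fixed by the choice, because only globin genes lay further below and these were left out. Likeness was the absolute gap between the differences over the 2 libraries, and globin, ribosomal protein, mitochondrial, Y-linked and predicted genes were not considered. They were the lymphatic chemokine gene Ccl21a (243.7 and 94.3 TPM in wild type and mutant library), the secreted protein gene Crispld2 (183 and 82.4 TPM), Ccdc3 (190.3 and 87.0 TPM), the ventricular myosin light chain gene Myl2 (407 and 201 TPM) and the heart fatty acid-binding protein gene Fabp3 (180 and 91.4 TPM). Their gaps to Chad ran from 0.41 to 0.80.

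Chad lies on chromosome 11 from 94565047 to 94569127 on the plus strand (mm10, ENSMUSG00000039084.8, 4 exons), within Acsf2, a fatty acyl-CoA synthetase gene on the opposite strand. Their exons do not overlap, and none of the 1650 distinct 31-base stretches of the Chad transcript occurs in a transcript of another gene in GENCODE M21. The labels do not say that the libraries kept strand. Without strand, reads of Chad that cross no exon junction and unspliced reads of Acsf2 could not be told apart. Acsf2 had 21.5 TPM in the wild-type library and 8.67 TPM in the mutant library, a difference of −1.22 in the same direction as Chad. The part of unspliced Acsf2 reads in the Chad values was not tested, nor was that of Chad reads in the Acsf2 values.

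Several of the genes stand side by side in the genome, so that neighbours can be compared. Dcn (chromosome 10, 97479609 to 97518143) and Lum (97565128 to 97572703) lie on the plus strand, followed by Kera and Epyc of the same family. Kera, encoding the corneal proteoglycan keratocan, had 2.42 TPM in the wild-type library and 3.30 TPM in the mutant library, and Epyc, encoding epiphycan of cartilage, had 10.7 and 7.25 TPM. Genes in this row thus ranged from one of the most abundant of the valve to some of the scarcest of the family. On chromosome 13 Aspn (49544443 to 49567565), Omd (49582462 to 49592822) and Ogn (49608046 to 49624501) follow Ecm2, another leucine-rich matrix gene, on the same strand. Ecm2 had 172 TPM in the wild-type library and 132 TPM in the mutant library, a difference of −0.38. The differences along this row were −0.38 for Ecm2, −0.0010 for Aspn, −0.40 for Omd and −0.79 for Ogn, so adjacent genes did not share one value. Aspn, Omd and Ogn lie within Cenpp, a centromere protein gene on the other strand, which had 8.55 TPM in wild type and 7.89 TPM in the mutant library. Prelp (chromosome 1, 133910304 to 133921414, minus strand) and Fmod (134037254 to 134048277, plus strand) are neighbours read away from each other, with differences of −0.29 and −0.24. Optc, beside Prelp, had 3.08 TPM in the wild-type library and 3.28 TPM in the mutant library. Bgn lies on chromosome X from 73483602 to 73495933, and Podn on chromosome 4 from 108014791 to 108096445, where it overlaps Scp2 (46.4 and 44.2 TPM) on the same strand. Of the 31-base stretches of each gene's transcripts, 8.998% were shared with other genes for Prelp, all with the antisense transcript Gm15851, and 6.46% for Omd. The share was below 0.5% for each of the others.

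RefSeq promoter windows (GRCm38.p6, the assembly also called mm10), from 250 bases before to 50 bases after a RefSeq start site, were available for 8 of the 10 genes. This site is not always the gene start given above. It differs for Ogn, Prelp and Bgn, and both Podn windows lie inside the span given for Podn, far from its start. Those of Chad and Ogn are shown as the genes with the largest differences, and that of Aspn because it is near Ogn and had nearly equal TPM in both libraries. Capitals mark TATAAA, the TATA box, and AACAAT, the core bound by SOX factors, on either strand, and all are written 5′ to 3′.
Chad, chr11:94564797-94565096, plus strand: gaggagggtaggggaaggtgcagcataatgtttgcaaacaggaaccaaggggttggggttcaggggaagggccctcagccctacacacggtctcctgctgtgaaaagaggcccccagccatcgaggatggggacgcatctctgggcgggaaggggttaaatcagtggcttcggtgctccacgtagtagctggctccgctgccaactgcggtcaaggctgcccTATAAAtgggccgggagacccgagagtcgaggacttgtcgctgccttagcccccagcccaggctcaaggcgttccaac
Ogn, chr13:49607765-49608064, plus strand: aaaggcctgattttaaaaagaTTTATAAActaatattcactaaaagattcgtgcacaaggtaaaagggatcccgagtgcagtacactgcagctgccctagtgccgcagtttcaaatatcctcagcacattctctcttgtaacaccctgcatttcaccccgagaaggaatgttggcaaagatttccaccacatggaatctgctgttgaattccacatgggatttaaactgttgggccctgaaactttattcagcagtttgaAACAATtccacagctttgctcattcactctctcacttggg
Aspn, chr13:49544193-49544492, plus strand: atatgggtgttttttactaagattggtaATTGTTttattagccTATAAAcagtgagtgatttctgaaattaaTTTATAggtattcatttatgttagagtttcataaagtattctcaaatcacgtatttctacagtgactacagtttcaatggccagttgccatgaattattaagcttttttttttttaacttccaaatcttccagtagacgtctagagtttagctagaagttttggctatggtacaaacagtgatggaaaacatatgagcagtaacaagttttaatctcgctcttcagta
G and C made up 61% of the Chad window, 42.3% of that of Ogn and 31% of that of Aspn. Of the windows not shown, those of Podn had 77% and 63%, Bgn 63.7%, Prelp 55.3%, Fmod 51% and Omd 37.7%. The Chad window holds a TATAAA starting at position −28, where a TATA box usually lies. It also holds a GGGCGG, the GC box, at −108, both counted from the RefSeq start site. The windows of Ogn and Aspn each have 2 matches to TATAAA, all further upstream, and in Ogn these overlap on opposite strands. Of 32851 windows of this length, 13.6% hold TATAAA, 10.7% hold AACAAT and 35.7% hold GGGCGG. Among the 9 windows of these genes (Podn has 2), 3 held TATAAA, 3 held AACAAT, 3 held GGGCGG and none held TGANTCA, the AP-1 site, which 7.81% of all windows hold. These matches describe letters only.

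The other genes of the family and the enzymes that build the sugar chains were taken from lists, none of which had a member at least 2-fold different among those averaging at least 1 TPM. The counts of genes with more TPM in these and the following lists stand beside 64.9% of all genes averaging at least 1 TPM, and the list medians beside 0.14. Of 8 further family genes 7 had such a mean, 5 with more and 2 with less TPM in the mutant library, and their median difference was 0.10 (−0.38 to 0.13 across the alternatives, so its sign was not stable). The most abundant after Ecm2 was Tsku, encoding the signalling antagonist tsukushi, at 15.4 and 17.4 TPM. Genes for the linker, chondroitin and dermatan sulfate had a median of 0.13 (−0.01 to 0.16), with 14 of 24 higher. Papss2, which makes the sulfate donor, had 195.2 TPM in wild type and 184.9 TPM in the mutant library. The chondroitin synthase gene Chsy1 had 90.9 and 73.7 TPM, the xylosyltransferase gene Xylt2, whose product starts the chain, 7.495 and 11.2 TPM, and the chondroitin sulfotransferase gene Chst3 had 5.04 and 7.78 TPM. Keratan sulfate genes had a median of 0.02 (−0.13 to 0.06), with 4 of 8 higher. The galactosyltransferase genes B4galt1 and B4galt4 had 62.3 and 67.2 TPM and 34.3 and 28.5 TPM, the sialyltransferase gene St3gal1 had 56.6 and 65.1 TPM and the sulfotransferase gene Chst2 had 6.25 and 8.92 TPM.

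**Figure D3:**
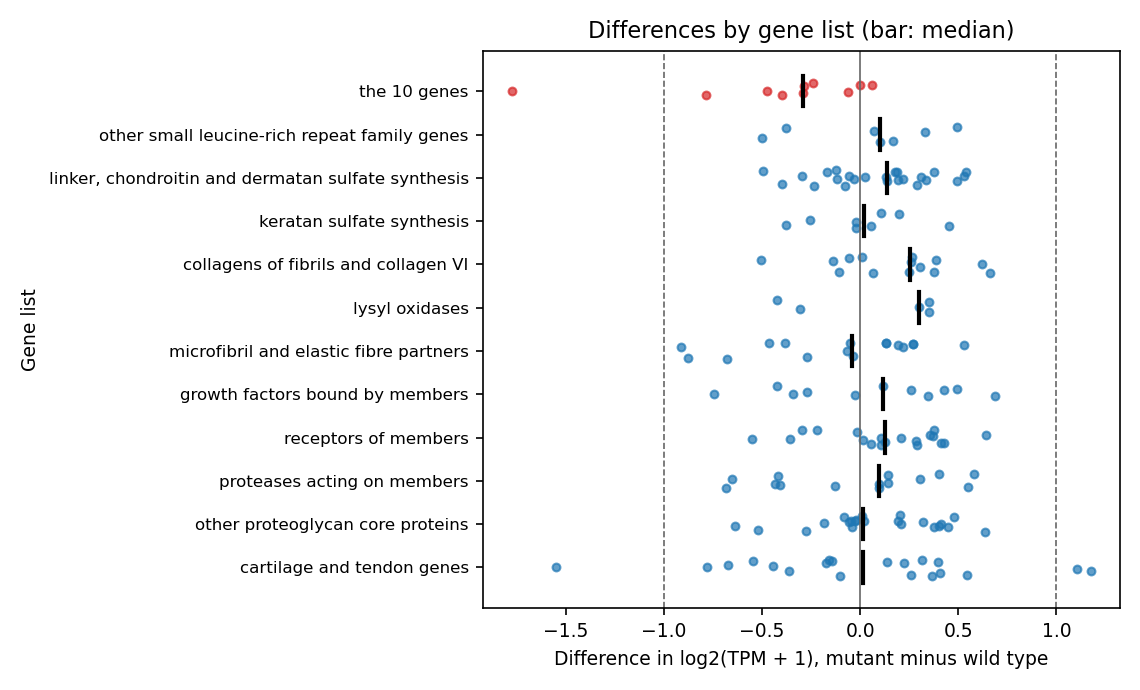
Mutant minus wild-type difference in log2(TPM + 1) of each gene averaging at least 1 TPM in the 10 genes (red) and in the lists of related genes (blue), with the median of each list as a bar and dashed lines at 2-fold. The median of the 10 genes is −0.29, that of the collagens 0.25, and points past 2-fold are seen for Chad and in the cartilage and tendon list.

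Of 14 genes for the collagens of fibrils and collagen VI, which these proteins bind, 10 were higher, a share near that of all genes, with a median of 0.25 (0.14 to 0.26 across the alternatives) and none at least 2-fold different. Col3a1 had 760.2 TPM in wild type and 995 TPM in the mutant library, Col1a2 401 and 476 TPM, Col5a2 83.5 and 132.8 TPM, and Col27a1 9.13 and 14.6 TPM. The 10 genes had 11.4 times the summed TPM of these collagens in the wild-type library and 7.77 times in the mutant library. Lysyl oxidases, the collagen cross-linking enzymes, had a median of 0.30 (0.15 to 0.31), with Loxl2 at 110.3 and 141 TPM and Loxl1 at 62.2 and 46.1 TPM. Microfibril and elastic fibre genes, to which decorin and biglycan also bind, had a median of −0.04 (−0.15 to −0.03) and 7 of 16 higher. None was at least 2-fold different as deposited, whereas Mfap4 was at least 2-fold lower after centring and Mfap2 under quantile normalization. In that list Mfap4 had a difference of −0.92 (1248 and 661 TPM) and Mfap2 one of −0.88 (65.6 and 35.2 TPM), and Ltbp4 had 408 and 398 TPM. Other proteoglycan core proteins had a median of 0.01 (−0.11 to 0.11), 12 of 22 with more TPM. The lubricin gene Prg4 had 4117 TPM in wild type and 3961 TPM in the mutant library, the versican gene Vcan 443 and 688 TPM, and the testican gene Spock2 15.4 and 9.52 TPM.

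Growth factors, receptors and proteases linked to the 10 genes held no member at least 2-fold different at this filter, except that Mmp9, below 1 TPM on average as deposited, passed the filter and was at least 2-fold higher with abundant and predicted genes left out. Growth factors had a median of 0.12 (−0.03 to 0.12), with Igf1 at 682 TPM in wild type and 406 TPM in the mutant library, Ctgf at 298.5 and 401 TPM and Tgfb3 at 79.4 and 58.8 TPM. Receptors had a median of 0.13 (0.01 to 0.25), below that of all genes, with 14 of 19 higher. The hyaluronan receptor gene Cd44 had 226 and 354 TPM, the endocytic receptor gene Lrp1 235 and 238 TPM and the VEGF receptor gene Kdr 18.5 and 12.3 TPM. Proteases had a median of 0.10 (−0.09 to 0.12), with Mmp2 at 338 and 374 TPM, the cathepsin gene Ctss at 153 and 225 TPM, Htra1 at 53.0 and 32.5 TPM and the collagenase gene Mmp13 at 8.25 and 4.88 TPM.

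Chad was not accompanied by one direction among cartilage and tendon genes. Of the 20 averaging at least 1 TPM, 10 were higher and 10 lower, beside 64.9% and 35.1% of all such genes. The list median was 0.02, beside 0.14 for all genes (−0.13 to 0.07 across the alternatives, so its sign was not stable). The list summed to 2292 TPM in wild type and 1911 TPM in the mutant library. Ucma, encoding a cartilage matrix protein, was at least 2-fold lower, at 50.3 TPM in wild type and 16.5 TPM in the mutant library. The tendon transcription factor gene Mkx (48.9 and 111.8 TPM) and the tenascin gene Tnc (5.54 and 13.1 TPM) were at least 2-fold higher. The abundant Cytl1 had 1155 and 790.5 TPM, and Comp, which encodes a pentameric cartilage protein, had 392 and 287.8 TPM. The cartilage proteoglycan gene Acan was near 1 TPM in both libraries (1.01 and 0.85), and Matn1 and Matn3 were listed at 0 in both.

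The tissue label was checked against markers. All 12 valve interstitial and fibroblast markers were above 10 TPM in both libraries, and their summed TPM was 6229 in wild type and 8391 in the mutant library, with 7 higher, 5 lower and none 2-fold different. Markers of several other cell types differed between the same libraries. The 2-fold counts below stand beside 1.72% of all genes averaging at least 1 TPM lower and 4.81% higher. Red blood cell markers summed to 6804 and 688 TPM (5 of 7 measured, 4 at least 2-fold lower), T cell markers to 175 and 71.4 TPM (7 of 11 at least 2-fold lower), cardiac muscle markers to 3179 and 2360 TPM (1 of 14 at least 2-fold lower), lymphatic markers to 373 and 213 TPM (3 of 7 at least 2-fold lower) and melanocyte markers to 149 and 101 TPM (1 of 8 at least 2-fold lower and 1 higher). Neutrophil markers summed to 18.5 and 104.5 TPM (4 of 7 measured at least 2-fold higher and 2 with less TPM). Ly6g and Elane were listed at 0 in both libraries and Ngp at 0 in wild type. Macrophage and monocyte markers summed to 2120 and 2549 TPM (1 of 12 at least 2-fold higher). Endothelial markers summed to 891 and 866 TPM and smooth muscle markers to 345 and 448 TPM, with none 2-fold different. Less TPM in the mutant library was found for 8 of 10 endothelial, 11 of 14 cardiac muscle and 3 of 7 measured smooth muscle markers. The same held for 1 of 12 macrophage and monocyte markers, beside 35.1% of all genes averaging at least 1 TPM. Adipocyte markers summed to 32.3 and 20.0 TPM, with Lep listed at 0 in both and Adipoq and Cidec at 0 in the mutant library. Of the 2-fold counts, that of T cell markers was 3 with a pseudocount of 5 TPM, and that of cardiac muscle markers ran from 0 to 2. The 2-fold count of red blood cell markers was 1 with abundant and predicted genes left out, a setting that drops globin genes. The part of these cells in the values of the 10 genes was not tested.

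The scale of the libraries bears on the small differences. The median gene averaging at least 1 TPM had a difference of 0.14 as deposited, of 0.03 after centring and of −0.01 under quantile normalization. After centring, the differences were −1.89 for Chad, −0.90 for Ogn, −0.59 for Lum, −0.51 for Omd, −0.41 for Dcn, −0.40 for Prelp, −0.35 for Fmod, −0.18 for Bgn, −0.11 for Aspn and −0.052 for Podn. Chad and Ogn were the lowest in each of the 6 alternatives.

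**Figure D4:**
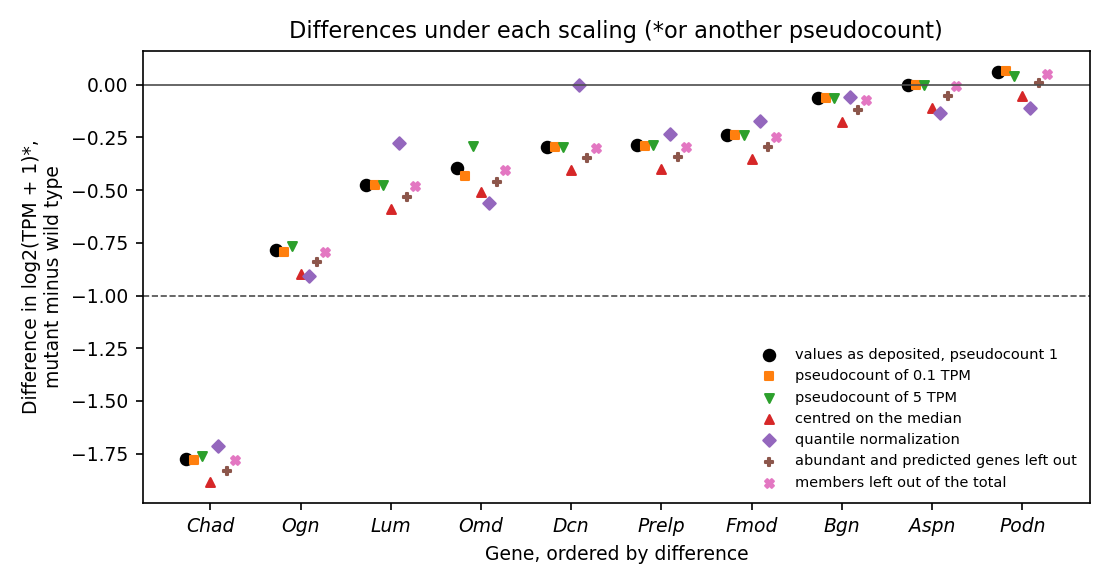
Mutant minus wild-type difference of each of the 10 genes on the log2 scale, as deposited with a pseudocount of 1 TPM (black) and under 6 alternatives (coloured), with a dashed line at 2-fold. Chad stays between −1.89 and −1.71, Dcn reaches 0.00 under quantile normalization, and Podn changes sign after centring and under quantile normalization.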

How the data were processed

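Per the labels' protocols, RNA from 8 pooled mitral valves per genotype was amplified (NuGEN Ovation), tagged into libraries (Nextera XT) and run on an Illumina HiSeq instrument. Per the submitters' processing notes, Trimmomatic, HISAT2, kallisto and mm10 were used. Versions, roles, the gene annotation and how transcripts were summed were not given in the sources used here. Deposited values are TPM per gene symbol, and the columns sum to 999964 and 999945. RNA was amplified and no molecular identifiers are named, so low values can rest on few molecules.

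Columns were matched to libraries by genotype. Differences were log2(TPM + 1), mutant minus wild type, a scale that understates differences of low genes, computed in Python 3.11.15 with pandas 2.3.3. Genes averaging at least 1 TPM formed the background. The calculation was run on simulated data with large planted changes and little noise. That checks the arithmetic alone and says nothing of how reliable the 2-fold differences given here are. Coordinates come from GENCODE M21 and promoters from RefSeq. The 10 genes and all lists were chosen with earlier results of these data known. Named from each list of related genes were the 2 most abundant genes and the 2 with the largest difference, averaging at least 5 TPM, and from marker lists the genes listed at 0. Kera, Optc, Acsf2, Cenpp, Scp2, Acan, Mmp9, Tnc, Matn1, Matn3 and the Y-linked genes are outside that rule and were named after their values were seen, and Gm15851 was named for its overlap alone. Snorc was not found in the table. The values of 1 marker list are not reported here. Alternatives were a pseudocount of 0.1 or 5, quantile normalization, centring on the median of genes averaging at least 10 TPM, dropping globin, mitochondrial, ribosomal protein and predicted genes, leaving the 10 genes out of the total, other filters, the mean, and sums or medians without 1 gene.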

Additional observations from a re-analysis of the deposited data

How the results depend on the processing

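No paired analysis was possible because each genotype has 1 library, and for the same reason no library could be left out. The number of these genes at least 2-fold lower was 1 under each of 6 alternatives, and the number with less TPM was 9 or 10. The median of the 10 genes ran from −0.43 (their mean) to −0.20 (quantile normalization) over 10 alternatives. Podn was at −0.052 after centring and −0.11 under quantile normalization, where Dcn was at 0.00. Without Dcn in the sum, Chad made up 7.67% for wild type and 2.70% for the mutant. Of 23 other lists, the medians of 13 changed sign or crossed the 2-fold mark under some alternative, and the counts of 2-fold differences in 6 moved by over 1.5 times. Over all genes, 293 were at least 2-fold lower and 818 higher, against 464 and 1264 with a pseudocount of 0.1, 87 and 209 with 5, 462 and 540 under quantile normalization, 278 and 499 with abundant and predicted genes left out, and 103 and 360 over genes averaging at least 5 TPM. Depth is unknown, so it could not be said which of the smaller differences it can resolve.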
